A study of Mus musculus with 12 samples.

Results

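The Adam, Adamts and Adamts-like genes were examined in RNA-Seq of mouse zeugopod chondrocytes. Members were chosen by gene symbol alone (Adam, Adamts or Adamtsl followed by a digit). This gave 57 of 36186 gene rows, with 33 Adam, 19 Adamts and 5 Adamtsl genes. Of these, 22 reached 5 NRPKM in at least 3 of the 12 libraries (7 Adam, 12 Adamts and 3 Adamtsl) and entered the tests, among 10936 genes in all. NRPKM is the deposited value, reads per kilobase of transcript scaled to library size and further normalized between libraries by the authors. It is a level per length of transcript, so it can be set side by side between genes. The other 35 members are given after the tested ones.

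Forelimbs were taken from E15.5 embryos of mixed 129/CD-1 strain and chondrocytes were collected from sections by laser capture microdissection (LCM). Each of the resting, proliferative and hypertrophic compartments of wild type (WT) embryos gave 3 libraries. The remaining 3 libraries were from *aadd* embryos, homozygous for mutant *Hoxa9,10,11* and *Hoxd9,10,11*, whose mutant alleles carry frameshifts in the first exon of each of the 6 genes. In GEO the hypertrophic samples carry the word hyperproliferative and *aadd* the compartment resting, and the paper's names are kept here. The *aadd* chondrocytes were captured as a single population, because compartments were not distinguished in these small elements, so the comparison with WT resting sets a whole element against 1 compartment. Captured tissue included some perichondrium. The study describes 3 independent sets, and *P* values measure the spread between these samples.

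ADAM proteins are membrane proteins with a metalloprotease domain and a disintegrin domain. Active members cut other membrane proteins near the cell surface and release growth factors, cytokines, adhesion molecules and Notch ectodomains. ADAMTS enzymes are secreted and carry thrombospondin type 1 repeats. They process extracellular matrix, including the proteoglycans aggrecan and versican, the propeptides of fibrillar collagens, and cartilage oligomeric matrix protein. ADAMTS-like proteins have the repeats without the protease and bind microfibrils and other matrix. In the growth plate, resting chondrocytes become proliferative and then hypertrophic, and hypertrophic cartilage is then invaded by vessels and by cells that resorb matrix. The transcript level of a protease does not give its activity.

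The depth read from the values of short receptor and keratin-associated rows was 1888310 to 3237890 reads per library. The cartilage list (10 of 10 markers found, such as *Sox9* and *Col2a1*) summed to 2331 to 4402 NRPKM in 10 libraries, and to 626 and 902 NRPKM in hypertrophic replicates 2 and 3. The hypertrophic chondrocyte list (10 of 10, such as *Col10a1* and *Ihh*) summed to 97.9 to 124 NRPKM in WT resting, 681 to 956 in WT proliferative, 1808 to 3907 in WT hypertrophic and 66.7 to 92.1 in *aadd*. The genes of this list did not run alike within the hypertrophic group. In replicates 1, 2 and 3 *Mmp13* was at 3.05, 735 and 661 NRPKM and *Spp1* at 24.1, 1083 and 979. *Col10a1* (264, 166 and 221 NRPKM) and *Ihh* (56.3, 9.54 and 15.3) were highest in replicate 1. Hypertrophic replicates 2 and 3 stood apart from replicate 1. Their osteoclast markers (10 of 10, such as *Acp5* and *Ctsk*) summed to 1351 and 995 NRPKM, against 51.5 in replicate 1 (*Calcr* and *Oscar* at 0) and 9.76 to 36.7 in the other 9 libraries (*Dcstamp* and *Ocstamp* at 0 in all 3 *aadd* libraries). Their endothelial markers (10 of 10) summed to 303 and 210 NRPKM, against 21.8 in replicate 1 and 5.24 to 38.9 elsewhere (*Cldn5* at 0 in all 3 WT proliferative libraries). Their macrophage markers (10 of 10) summed to 281 and 229 NRPKM, against 25.3 in replicate 1 (*C1qa*, *Cd14* and *Lyz2* at 0) and 14.6 to 35.9 elsewhere. Most of that sum was *Cd68* (174 and 160 NRPKM) and *Csf1r* (56.7 and 49.6). *Lyz2* and *Cd14* were also above all other libraries in both replicates. *Aif1*, *C1qa*, *Cx3cr1*, *Emr1*, *Fcgr1* and *Mrc1* were not. Hypertrophic levels of the tested members are therefore given by library, and the fit without replicate 1 stands beside each hypertrophic comparison in which a tested member was called with or without it. In bulk libraries fewer cells of a type and less RNA per cell cannot be told apart.

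The promoters of 4 genes that the results turn on are shown first. *Adam19* is shown for its levels over the 3 WT compartments, *Adamts3* for the highest mean over the 12 libraries and 1 of the widest gaps between hypertrophic replicates, and *Adamts1* and *Adamtsl3* because both were higher in *aadd*. Each is the 250 bases before the transcription start in RefSeq (build GRCm38.p6). Capitals mark matches, on either strand, to the motifs searched. The GC box, which binds factors of the Sp family, was read as GGGCGG wherever it occurred. For the TATA box of the core promoter the letters were TATAAA, as in many genes with a sharp start. The site for SOX factors, among them those of cartilage, was searched as ACAAAG in the same window. An AP-1 site, bound by Fos and Jun proteins, was taken to be TGACTCA.
*Adam19* (chr11:46055734-46055983, plus strand): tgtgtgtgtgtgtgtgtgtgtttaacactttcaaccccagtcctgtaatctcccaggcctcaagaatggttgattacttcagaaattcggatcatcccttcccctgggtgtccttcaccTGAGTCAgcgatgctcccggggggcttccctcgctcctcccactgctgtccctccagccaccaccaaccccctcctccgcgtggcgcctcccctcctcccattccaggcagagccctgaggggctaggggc
*Adamts3* (chr5:89883335-89883584, minus strand): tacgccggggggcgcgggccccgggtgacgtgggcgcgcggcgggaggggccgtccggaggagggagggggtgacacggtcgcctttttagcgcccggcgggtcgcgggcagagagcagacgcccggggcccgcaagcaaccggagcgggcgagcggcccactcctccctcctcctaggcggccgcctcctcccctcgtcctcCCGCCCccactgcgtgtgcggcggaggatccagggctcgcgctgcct
*Adamts1* (chr16:85803114-85803363, minus strand): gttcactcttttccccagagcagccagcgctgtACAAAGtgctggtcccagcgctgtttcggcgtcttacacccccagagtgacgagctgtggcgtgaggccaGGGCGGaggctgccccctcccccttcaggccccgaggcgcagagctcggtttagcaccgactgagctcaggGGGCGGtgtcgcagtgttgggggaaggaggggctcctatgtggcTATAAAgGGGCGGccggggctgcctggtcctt
*Adamtsl3* (chr7:82335444-82335693, plus strand): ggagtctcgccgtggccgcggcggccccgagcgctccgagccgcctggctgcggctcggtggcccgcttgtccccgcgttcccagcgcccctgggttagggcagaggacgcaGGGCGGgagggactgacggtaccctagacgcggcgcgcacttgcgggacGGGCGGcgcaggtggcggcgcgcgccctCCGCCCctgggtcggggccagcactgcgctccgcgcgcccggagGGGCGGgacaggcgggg
The RefSeq table held a promoter for 31 of the 57 members and 13 of the 22 tested. A GC box was in 10 of these 13, against 32.7% of all 32851 promoters of the same length. A SOX site and a TATA box were each found in *Adamts1* alone (16.5% and 12.4% of all promoters), an AP-1 site in *Adam19* alone (4.46%) and a RUNX site (TGTGGT) in *Adam15* alone (14%). A posterior Hox site was searched in 2 forms. The form TTTACGA was in none of the 13 promoters and in 0.478% of all. The other form, TTTATGG, was likewise in none of the 13 and in 2.43% of all. Their GC contents were 60% for *Adam19*, 65.6% for *Adamts1*, 78% for *Adamts3* and 80% for *Adamtsl3*, against a median of 52.4% over all promoters. Overlapping GC boxes were marked as 1 run, and a match is a description of these letters only.

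**Figure D1:**
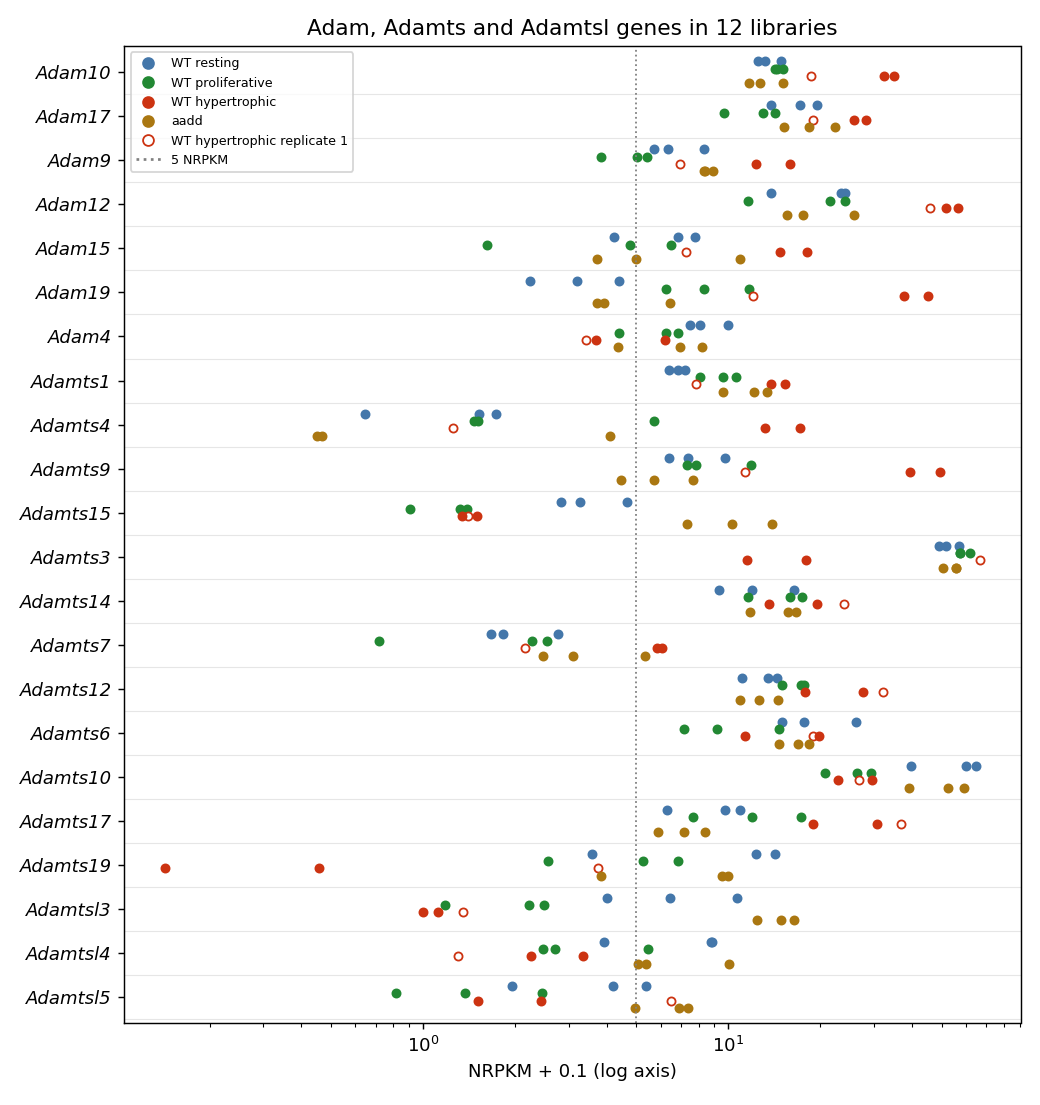
Level of the 22 tested members in each of the 12 libraries, as NRPKM + 0.1 on a log axis, 1 point per library and colored by group, with hypertrophic replicate 1 open. *Adamts15* and *Adamtsl3* are highest in *aadd* with no overlap with WT, and *Adamts3* lies between 48.9 and 66.5 NRPKM in 10 libraries and at 11.4 and 17.8 NRPKM in hypertrophic replicates 2 and 3.

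Over all 12 libraries *Adamts3* had the highest mean level (49.2 NRPKM), followed by *Adamts10* (39.2), *Adam12* (27.5), *Adam17* (17.9) and *Adam10* (17.4). The order differed between groups. In WT resting *Adamts10* (54.7) and *Adamts3* (52.4) came first with overlapping libraries, in WT proliferative *Adamts3* (58.7) was first, in WT hypertrophic *Adam12* (51.2), *Adamts9* (33.2) and *Adamts3* (31.9) had the highest means, and in *aadd* *Adamts3* (53.8) and *Adamts10* (50.2) did. *Adamts7* had the lowest mean of the tested members (2.97 NRPKM). It passed the level filter through hypertrophic replicates 2 and 3 and *aadd* replicate 2, *Adamts4* through hypertrophic replicates 2 and 3 and proliferative replicate 3, and *Adamts15* through the 3 *aadd* libraries, so that filter and contrast are not independent for these 3 genes. *Adamtsl3* and *Adamtsl5* also needed *aadd* libraries to pass, with fewer than 3 WT libraries at 5 NRPKM, so the same holds for them in *aadd*. Just outside the filter were *Adamts2* and *Adam8*, each at 5 NRPKM or more in 2 libraries. Genes were called by criteria the study used with its moderated test, here an unadjusted *P* up to 0.05 in limma together with an FC limit of 2 for pairs of WT compartments and 1.5 for *aadd* against WT resting, and *P* values were adjusted over all 10936 genes. For *aadd* the study additionally tested pooled reads, which was not done here.

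Between WT proliferative and WT resting, 5 members were called, of 22 tested (22.7%), against 5.53% of all genes tested. *Adam19* was higher in the proliferative compartment and *Adamts10*, *Adamts15*, *Adamtsl3* and *Adamtsl5* were lower (2.56% of all genes were called higher and 2.97% lower). The groups did not overlap for 10 members, 4 higher and 6 lower, against 24% of all genes, 9.83% higher and 14.2% lower. The median log2 FC of the 22 was -0.41, and -0.06 over all genes. None of the 22 passed an adjusted *P* under 0.05 (0.622% of all genes did). At an unadjusted *P* up to 0.05 with no limit on FC there were 8. With the replicate number as a block, *Adamtsl5* was no longer called (unadjusted *P* = 0.0748 in limma) and *Adamtsl4* was (log2 FC -1.02, unadjusted *P* = 0.0248), so the count stayed at 5, against 6.14% of all genes in that fit.

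Between WT hypertrophic and WT proliferative, 7 members were called with all 3 libraries a group, 6 higher (*Adam9*, *Adam12*, *Adam15*, *Adam19*, *Adamts9* and *Adamts17*) and 1 lower (*Adamts19*). The share of all genes called was 9.67%, with 5.32% higher and 4.34% lower. In 8 members the groups did not overlap, all higher in hypertrophic, against 24.2% of all genes in either direction and 13.3% higher. The median log2 FC of the members was 0.82, and 0.04 over all genes. Adjustment in limma left no member and no other gene under 0.05, and 9 members had an unadjusted *P* up to 0.05. Without hypertrophic replicate 1 there were 12 called, 10 higher and 2 lower, against 18.4% of all genes (9.79% higher and 8.56% lower), and 9 of them passed an adjusted *P* under 0.05 (17.4% of all genes). The 5 added were *Adam10*, *Adam17*, *Adamts4* and *Adamts7*, which were higher, and *Adamts3*, which was lower. *Adamts4* and *Adamts7* had passed the level filter in part through hypertrophic replicates 2 and 3. Without hypertrophic replicate 2 the calls were *Adam12* and *Adamts17*, and without replicate 3 *Adam12* and *Adam9*, so the count fell to 2 in each case. All genes were called at 6.45% and 6.02% in those fits. Without proliferative replicate 3 the count was 4, against 7.87% of all genes.

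Between WT hypertrophic and WT resting, 11 members were called, 6 higher (*Adam10*, *Adam12*, *Adam15*, *Adam19*, *Adamts9* and *Adamts17*) and 5 lower (*Adamts10*, *Adamts15*, *Adamts19*, *Adamtsl3* and *Adamtsl4*), against 13% of all genes, 5.84% higher and 7.2% lower. Of these, *Adam12*, *Adam19*, *Adamts15*, *Adamts17* and *Adamtsl3* passed an adjusted *P* under 0.05 (6.36% of all genes). The groups did not overlap for 12 members, 7 higher and 5 lower, against 32% of all genes, 14.1% higher and 17.8% lower. The median log2 FC was 0.66, and -0.02 over all genes. Without hypertrophic replicate 1 there were 16 called, against 19.2% of all genes, and 15 members with an adjusted *P* under 0.05, against 24.2%. The 5 added calls were *Adam9*, *Adamts1*, *Adamts4* and *Adamts7*, which were higher, and *Adamts3*, which was lower. Here too *Adamts4* and *Adamts7* had passed the level filter in part through hypertrophic replicates 2 and 3. Without hypertrophic replicate 2 or 3, or without resting replicate 3, no member passed adjustment, with 8, 10 and 9 called. The shares of all genes were 11.1%, 10.9% and 11.4% called, and 1.77%, 1.43% and 1.62% past adjustment. This comparison shares its WT resting libraries with the proliferative and *aadd* comparisons, and its hypertrophic libraries with the comparison above.

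Between *aadd* and WT resting, 3 members were called and all 3 were higher in *aadd*: *Adamts1*, *Adamts15* and *Adamtsl3*. All genes were called at 6.56%, and at 3.78% in the higher direction. The groups did not overlap for these 3 and for *Adam9*, 4 of 22 and all higher, against 15.4% of all genes and 8.08% in the higher direction. *Adamts15* reached the level filter through the *aadd* libraries alone, so its place in both counts is not independent of this contrast. *Adamtsl3* reached it only with the *aadd* libraries added to resting replicates 2 and 3, so its place is not independent either. The median log2 FC of the 22 was -0.04, and 0.01 over all genes. None passed an adjusted *P* under 0.05 (lowest 0.186 for *Adamts15* in limma, 0.119% of all genes passing), and 3 had an unadjusted *P* up to 0.05. Leaving out resting replicate 3 or *aadd* replicate 2 gave 5 called in each case, with *Adamts7* and *Adamtsl5* higher in the former and *Adamts4* and *Adamts9* lower in the latter, and the 3 above were called in both. All genes were called at 7.31% and 7.64% in those fits.

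The shedding ADAMs are described first. *Adam19* (meltrin beta), which can release neuregulin, was at 4.28, 2.13 and 3.10 NRPKM in WT resting, 11.6, 6.16 and 8.22 in WT proliferative, 11.9, 45.0 and 37.4 in WT hypertrophic and 3.61, 6.32 and 3.83 in *aadd*. Every WT proliferative library was above every WT resting library, and every hypertrophic library above every proliferative one, replicate 1 by a narrow margin. The log2 FC of proliferative against resting was 1.43 ± 0.33 (SE; limma, adjusted *P* = 0.133). For hypertrophic against proliferative it was 1.69 ± 0.54 (adjusted *P* = 0.200), and 2.28 ± 0.31 without hypertrophic replicate 1 (adjusted *P* = 0.0124). The latter call was lost without proliferative replicate 2 or 3 or hypertrophic replicate 2 or 3, with log2 FC of 1.47, 1.67, 1.32 and 1.46 and unadjusted *P* in limma of 0.0653, 0.0533, 0.0610 and 0.0630. Hypertrophic against resting gave 3.11 ± 0.54 (adjusted *P* = 0.0295), and 3.71 ± 0.31 without replicate 1 (adjusted *P* = 0.00178). *Adam19* was thus the 1 tested member called in all 3 comparisons of WT compartments, and *aadd* overlapped WT resting (log2 FC 0.53, 95% interval -0.23 to 1.28).

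*Adam12* (meltrin alpha), a protease that cuts insulin-like growth factor binding proteins, was at 45.7, 51.4 and 56.5 NRPKM in the hypertrophic libraries. It was at 13.7, 23.9 and 23.2 in WT resting, 24.0, 11.5 and 21.5 in WT proliferative and 17.39, 25.76 and 15.51 in *aadd*. The hypertrophic libraries lay close together and above the other 9, replicate 1 included. Hypertrophic libraries differed by a log2 FC of 1.49 ± 0.31 against proliferative (limma, adjusted *P* = 0.133) and 1.37 ± 0.26 against resting (adjusted *P* = 0.0368). Without replicate 1 these were 1.57 ± 0.36 and 1.45 ± 0.29 (adjusted *P* = 0.0404 and 0.0214). Its calls held under each of the 12 alternatives in both comparisons, with log2 FC of 1.16 to 1.69 and 1.11 to 1.51. Among proliferative, resting and *aadd* its levels overlapped.

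*Adam15* (metargidin), an ADAM with an integrin binding motif, was at 7.14 NRPKM in hypertrophic replicate 1 and 18.03 and 14.7 in replicates 2 and 3. WT resting had 4.13, 7.68 and 6.73 NRPKM, WT proliferative 4.67, 1.53 and 6.38, and *aadd* 4.87, 10.8 and 3.61. Replicate 1 was above the proliferative libraries and inside the resting range. The log2 FC against proliferative was 1.76 ± 0.60 (limma, adjusted *P* = 0.210), and it was no longer called without hypertrophic replicate 2 or 3 (1.49 and 1.63). Against resting it was 1.04 ± 0.41 (adjusted *P* = 0.174), which was not called without resting replicate 1 or 3 or hypertrophic replicate 2 or 3 (0.78, 1.12, 0.77 and 0.91). Without replicate 1 the log2 FC was 2.15 ± 0.61 against proliferative and 1.43 ± 0.30 against resting (adjusted *P* = 0.0697 and 0.0252).

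*Adam9* (meltrin gamma), another widely expressed sheddase, was at 6.86 NRPKM in hypertrophic replicate 1 and 15.8 and 12.3 in replicates 2 and 3. The 9 other libraries had 5.62, 6.24 and 8.20 NRPKM in WT resting, 5.33, 3.72 and 4.94 in WT proliferative and 8.83, 8.25 and 8.30 in *aadd*. All hypertrophic libraries were above all proliferative ones, while replicate 1 was within the resting range. The log2 FC against proliferative was 1.24 ± 0.34 (limma, adjusted *P* = 0.175), and it was below the FC limit without hypertrophic replicate 2 (0.98). Without replicate 1 it was 1.57 ± 0.24 against proliferative (adjusted *P* = 0.0164) and 1.06 ± 0.23 against resting (adjusted *P* = 0.0269), and with all libraries the latter was not called. The 3 *aadd* libraries lay just above the WT resting libraries, with a log2 FC of 0.35 that was not called (95% interval -0.09 to 0.79).

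*Adam10*, the sheddase that cuts Notch receptors and cadherins, was at 18.6 NRPKM in hypertrophic replicate 1 and 32.3 and 34.9 in replicates 2 and 3. The range over the other 9 libraries was 11.6 to 15.0 NRPKM. Hypertrophic replicate 1 thus lay above those libraries and below its own group. The log2 FC was 0.93 ± 0.27 against proliferative, short of the FC limit, and 1.21 ± 0.16 without replicate 1 (limma, adjusted *P* = 0.0118). Against resting it was 1.04 ± 0.28 (adjusted *P* = 0.0781), and 1.32 ± 0.16 without replicate 1 (adjusted *P* = 0.00515). It lost the FC limit without resting replicate 3 or hypertrophic replicate 2 or 3 (0.98, 0.92 and 0.87). *Adam17*, the tumor necrosis factor alpha converting enzyme that also releases ligands of the EGF receptor, had 18.9 NRPKM in replicate 1 and 28.2 and 25.7 in replicates 2 and 3. It was at 9.54 to 14.1 NRPKM in WT proliferative, 13.7 to 19.5 in WT resting and 15.1 to 22.3 in *aadd*. Its log2 FC against proliferative was 0.99 ± 0.25 with all libraries and 1.16 ± 0.23 without replicate 1 (limma, adjusted *P* = 0.0285). The *Adam17* row overlaps *Iah1*, and the origin of reads in the overlap cannot be told here.

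*Adam4*, known chiefly from testis, ran the other way, at 7.41 to 9.90 NRPKM in WT resting and 3.31, 3.58 and 6.10 in WT hypertrophic. The groups did not overlap but the change was short of the FC limit (log2 FC -0.99 ± 0.28; limma, adjusted *P* = 0.0886). It passed the limit without resting replicate 1 or 2 or hypertrophic replicate 3 (-1.07, -1.02 and -1.25). Its row overlaps *Cox16* and *Synj2bp*, so its reads cannot be told apart from theirs here.

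Among the proteoglycanases, *Adamts9*, a versican-cleaving enzyme, was at 11.2 NRPKM in hypertrophic replicate 1 and 49.3 and 39.2 in replicates 2 and 3. The other libraries had 6.31, 9.66 and 7.26 NRPKM in WT resting, 11.8, 7.21 and 7.73 in WT proliferative and 5.62, 7.58 and 4.34 in *aadd*. Replicate 1 lay within the proliferative range, and replicates 2 and 3 were 3.94 times higher than it on average. The log2 FC against proliferative was 1.67 ± 0.58 (limma, adjusted *P* = 0.213), and 2.33 ± 0.28 without replicate 1 (adjusted *P* = 0.0102). It was not called without proliferative replicate 2 or 3 or hypertrophic replicate 2 or 3 (log2 FC 1.54, 1.59, 1.26 and 1.43). Against resting it was 1.86 ± 0.56 (adjusted *P* = 0.101), and not called without resting replicate 1 (1.72). Without hypertrophic replicate 1 it was 2.51 ± 0.24 (adjusted *P* = 0.00260). The row ends 42093 bases from the start of the RefSeq transcript and overlaps *A730049H05Rik*.

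*Adamts4* (aggrecanase-1) was low in most libraries. It was at 1.15 NRPKM in hypertrophic replicate 1 and 17.04 and 13.1 in replicates 2 and 3, a 13.1-fold gap within the group. The next highest libraries were proliferative replicate 3 (5.62 NRPKM) and *aadd* replicate 2 (3.999), and the remaining 7 were at 0.35 to 1.63. Hypertrophic replicates 2 and 3 and these 2 libraries were also the 4 highest in the summed perichondrium and fibroblast markers. The sum was 2342 and 1569 NRPKM in hypertrophic replicates 3 and 2, 1379 in proliferative replicate 3 and 1152 in *aadd* replicate 2. The other 8 libraries had 481 to 889. *Col1a1* was the largest part of the sum in these 4 libraries. Of the markers, *Col1a1*, *Col1a2*, *Fap* and *Postn* each had these 4 libraries at the top. *Col3a1*, *Dcn*, *Lum*, *Pdgfra*, *Thy1* and *Twist1* did not. *Lum* was highest in proliferative replicates 3 and 2 and *Pdgfra* in *aadd*. Proliferative replicate 3 and *aadd* replicate 2 were also highest in the skeletal muscle sum (97.3 and 48.3 NRPKM). These orders were seen after the values were known, and the part of those cells in the levels was not tested. With all libraries *Adamts4* was not called (log2 FC against proliferative 1.49 ± 1.10; limma, adjusted *P* = 0.471). Without replicate 1 it was 2.69 ± 0.65 (adjusted *P* = 0.0483), and 3.65 ± 0.46 against resting (adjusted *P* = 0.00569).

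*Adamts15*, an aggrecanase and versicanase, was at 10.2, 13.8 and 7.20 NRPKM in *aadd*. WT resting had 2.74, 4.57 and 3.17 NRPKM, WT proliferative 1.29, 1.22 and 0.80, and WT hypertrophic 1.30, 1.41 and 1.24. The *aadd* libraries were above all WT libraries, WT resting was above the later compartments, and the hypertrophic replicates kept to that narrow range. The log2 FC was 1.53 ± 0.30 for *aadd* against resting (limma, adjusted *P* = 0.186), -1.57 ± 0.27 for proliferative against resting (adjusted *P* = 0.0810) and -1.31 ± 0.23 for hypertrophic against resting (adjusted *P* = 0.0286). These comparisons share the resting libraries, and the gene reached the level filter through the *aadd* libraries alone. No library left out ended any of these calls, and without hypertrophic replicate 1 the last was -1.31 ± 0.25 (adjusted *P* = 0.0197). The joint list (10 of 10 markers, none at 0) summed to 290 to 313 NRPKM in *aadd* and 166 to 238 in WT resting. It summed to 101 to 106 in WT proliferative and 112 to 114 in WT hypertrophic. Like *Adamts15*, the sum was highest in *aadd*, then in WT resting, then in the later compartments, as were *Sfrp2*, *Osr1* and *Dcx*. In *Sfrp2* and *Osr1* WT hypertrophic was below WT proliferative, the reverse of the sum. Other genes of the list differed further. *Osr2*, *Erg*, *Enpp1*, *Prg4* and *Wnt9a* overlapped between *aadd* and WT resting. *Wnt4* was lowest in WT resting (7.26 to 8.60 NRPKM) and at 19.8 to 32.6 in WT hypertrophic. The part of the list in these levels was not tested.

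*Adamts1*, an aggrecan and versican-cleaving protease, was at 12.1, 13.3 and 9.49 NRPKM in *aadd* and 6.72, 6.31 and 7.10 in WT resting. WT proliferative had 10.5, 7.98 and 9.52 NRPKM, and WT hypertrophic 7.71, 13.7 and 15.2. WT resting was thus the lowest group, below every other library. The log2 FC of *aadd* against resting was 0.77 ± 0.18 (limma, adjusted *P* = 0.253), and it was called with each library left out. Proliferative against resting gave 0.46 ± 0.17 and hypertrophic against resting 0.80 ± 0.28, neither past the FC limit. Without hypertrophic replicate 1 the latter was 1.10 ± 0.16 (adjusted *P* = 0.00793). Its promoter, shown above, has 3 GC boxes, a TATA box and a SOX site.

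The procollagen N-propeptidases differed widely in level. *Adamts3*, which removes the amino propeptide of procollagen II, was at 66.5 NRPKM in hypertrophic replicate 1 and 11.4 and 17.8 in replicates 2 and 3. It was at 51.6, 48.9 and 56.8 NRPKM in WT resting, 61.9, 57.2 and 57.1 in WT proliferative and 55.7, 55.6 and 50.2 in *aadd*. The 10 libraries other than hypertrophic replicates 2 and 3 thus kept to a narrow range. With all libraries the log2 FC against proliferative was -1.29 ± 0.63 (limma, adjusted *P* = 0.306), and without replicate 1 it was -2.03 ± 0.24 (adjusted *P* = 0.00972), and -1.87 ± 0.23 against resting (adjusted *P* = 0.00552). The summed cartilage markers were at 2748 NRPKM in replicate 1 and 626 and 902 in replicates 2 and 3, in the same order, and their part was not tested.

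*Adamts14*, a related propeptidase, was at 9.25 to 17.3 NRPKM in resting and proliferative libraries, 23.9, 13.5 and 19.4 in WT hypertrophic and 11.6 to 16.6 in *aadd*. The groups overlapped in every comparison and none was called. *Adamts2*, the chief procollagen I N-propeptidase, was outside the tests. It was at 15.4 and 14.8 NRPKM in hypertrophic replicates 2 and 3 and 1.31 in replicate 1, and at 0.28 to 4.14 in the other 9. The highest of those 9 were proliferative replicate 3 and *aadd* replicate 2 (4.14 and 3.99 NRPKM), the same 4 libraries at the top as for *Adamts4*.

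*Adamts7* and *Adamts12* can cut cartilage oligomeric matrix protein. *Adamts7* was at 2.05 NRPKM in hypertrophic replicate 1, 5.97 and 5.75 in replicates 2 and 3 and 0.62 to 5.23 in the other 9 libraries. It was not called with all libraries, and without replicate 1 the log2 FC against proliferative was 1.89 ± 0.59 (limma, adjusted *P* = 0.0849) and against resting 1.54 ± 0.26 (adjusted *P* = 0.0130). *Adamts12* was at 32.0, 17.7 and 27.6 NRPKM in WT hypertrophic, 17.2, 14.9 and 17.5 in WT proliferative, 11.0, 13.4 and 14.3 in WT resting and 12.5, 14.4 and 10.9 in *aadd*. Each WT compartment lay above the one before it without overlap, hypertrophic replicate 2 only just, but no step passed the FC limit. The log2 FC of hypertrophic against resting was 0.96 ± 0.27 (adjusted *P* = 0.0846), and it passed the limit without resting replicate 3 or hypertrophic replicate 2 (1.04 and 1.21). Without replicate 1 it was 0.78 ± 0.25 and not called.

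Of the other ADAMTS enzymes, *Adamts17*, whose human ortholog is mutated in a Weill-Marchesani-like syndrome with short stature, was at 36.7, 18.9 and 30.6 NRPKM in WT hypertrophic. WT proliferative had 17.2, 7.54 and 11.9 NRPKM, WT resting 9.65, 10.8 and 6.18 and *aadd* 5.76, 8.26 and 7.04. All hypertrophic libraries were above the rest, and replicate 1 was the highest, unlike *Adam19*, *Adamts4* and *Adamts9*, in which it was the lowest of its group. Against proliferative and resting its log2 FC was 1.25 ± 0.39 and 1.67 ± 0.33 (limma, adjusted *P* = 0.189 and 0.0403). The former was lost without proliferative replicate 2 or hypertrophic replicate 3 (0.95 and 1.18), and the latter held with each library left out. Without replicate 1 they were 1.05 ± 0.41 and 1.47 ± 0.33 (adjusted *P* = 0.142 and 0.0304).

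*Adamts10*, an enzyme tied to fibrillin microfibrils and mutated in Weill-Marchesani syndrome, was at 39.4, 60.05 and 64.7 NRPKM in WT resting and 52.4, 59.2 and 38.8 in *aadd*. It was at 26.3, 20.7 and 29.3 NRPKM in WT proliferative and 26.7, 22.8 and 29.5 in WT hypertrophic. The resting and *aadd* libraries were all above the proliferative and hypertrophic ones, and hypertrophic replicate 1 did not stand apart. Its log2 FC was -1.09 ± 0.25 for proliferative against resting (limma, adjusted *P* = 0.131) and -1.03 ± 0.24 for hypertrophic against resting (adjusted *P* = 0.0613). The former fell short of the FC limit without resting replicate 3 or proliferative replicate 2 (-0.95 in each), and the latter without resting replicate 2 or 3 or hypertrophic replicate 2 (-0.95, -0.89 and -0.93). Without replicate 1 the latter was -1.04 ± 0.27 (adjusted *P* = 0.0458). For *aadd* against resting it was -0.12, with a 95% interval of -0.73 to 0.50.

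*Adamts6*, the close relative of *Adamts10*, was at 14.9, 26.1 and 17.7 NRPKM in WT resting, 9.10, 7.04 and 14.6 in WT proliferative, 18.8, 11.2 and 19.8 in WT hypertrophic and 14.5, 18.2 and 16.8 in *aadd*. The proliferative libraries were below the resting ones (log2 FC -0.95 ± 0.33; limma, adjusted *P* = 0.243), short of the FC limit, which was passed without resting replicate 1 or 3 or proliferative replicate 3 (-1.13, -1.01 and -1.24). *Adamts19*, needed for heart valve development, was at 14.1, 12.2 and 3.47 NRPKM in WT resting, 6.72, 5.15 and 2.47 in WT proliferative, 9.45, 3.73 and 9.84 in *aadd* and 3.64 in hypertrophic replicate 1. In hypertrophic replicates 2 and 3 it was at 0.36 and 0.04 NRPKM, or about 16.2 and 1.8 reads. The log2 FC of -2.85 ± 1.16 against proliferative (limma, adjusted *P* = 0.256) and -3.78 ± 1.21 against resting (adjusted *P* = 0.114) therefore rested on these libraries and on few reads. The former was lost with any library but hypertrophic replicate 1 left out (-1.79 to -3.26), and the latter without resting replicate 1 or 2 or hypertrophic replicate 2 (-3.41, -3.51 and -3.55). Without hypertrophic replicate 1 they were -4.14 ± 0.64 and -5.07 ± 0.77 (adjusted *P* = 0.0172 and 0.0102).

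Among the ADAMTS-like genes, *Adamtsl3* was at 14.7, 16.3 and 12.3 NRPKM in *aadd* and 3.90, 10.6 and 6.33 in WT resting. WT proliferative had 2.13, 1.08 and 2.40 NRPKM, and WT hypertrophic 1.25, 0.90 and 1.02. The 4 groups fell in the order *aadd*, resting, proliferative, hypertrophic, with an overlap between the last pair alone. The log2 FC was 1.15 ± 0.35 for *aadd* against resting (limma, adjusted *P* = 0.358), -1.80 ± 0.44 for proliferative against resting (adjusted *P* = 0.142) and -2.501 ± 0.37 for hypertrophic against resting (adjusted *P* = 0.0183), all with the same resting libraries. No library left out ended these calls, and without hypertrophic replicate 1 the last was -2.62 ± 0.42 (adjusted *P* = 0.0114). The gene passed the level filter only with the *aadd* libraries counted. The joint sum given beside *Adamts15* had the same order of *aadd*, resting and the later compartments, though not each of its genes did. Its part was not tested here either.

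*Adamtsl4*, which takes part in fibrillin microfibril assembly, was at 3.81, 8.74 and 8.69 NRPKM in WT resting, 2.61, 5.35 and 2.37 in WT proliferative, 1.202, 2.15 and 3.24 in WT hypertrophic and 5.26, 9.95 and 4.94 in *aadd*. The hypertrophic libraries were below all resting libraries (log2 FC -1.65 ± 0.46; limma, adjusted *P* = 0.0876), a call that held with each library left out (-1.29 ± 0.43 without replicate 1, adjusted *P* = 0.0802). For proliferative against resting the log2 FC was -1.02 ± 0.44, called without resting replicate 1 or proliferative replicate 2 (-1.41 and -1.38) but not with all libraries. *Adamtsl5* was at 1.86, 4.08 and 5.26 NRPKM in WT resting, 2.36, 0.72 and 1.27 in WT proliferative, 6.40, 2.33 and 1.41 in WT hypertrophic and 4.83, 7.29 and 6.80 in *aadd*. Its groups overlapped in all 4 comparisons, and the call between proliferative and resting (log2 FC -1.33 ± 0.51; limma, adjusted *P* = 0.275) was lost without resting replicate 2 or 3 or proliferative replicate 2 or 3 (-1.21, -1.03, -0.94 and -1.32). It overlaps *Sbno2*, so its reads are uncertain.

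**Figure D2:**
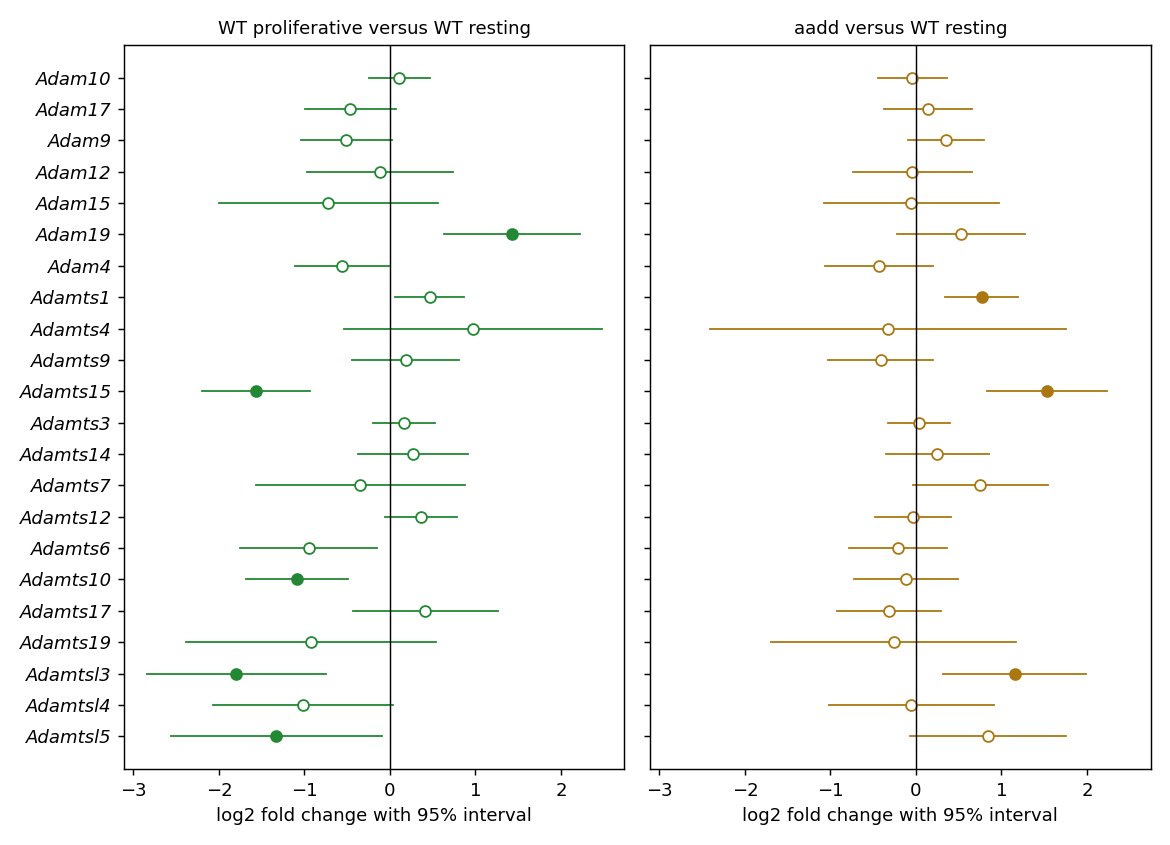
log2 FC of the 22 tested members for WT proliferative against WT resting (left) and *aadd* against WT resting (right), with 95% intervals from limma and 3 libraries a group. Filled points were called. *Adamts15* and *Adamtsl3* lie at -1.57 and -1.80 on the left and at 1.53 and 1.15 on the right, and both panels use the same WT resting libraries.

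The gap within the hypertrophic group differed between members. In 10 of the 22, replicate 1 was nearer the proliferative mean than the mean of replicates 2 and 3 on the log2 scale, against 63.6% of all genes tested. These were *Adam9*, *Adam10*, *Adam15*, *Adam19*, *Adamts1*, *Adamts3*, *Adamts4*, *Adamts7*, *Adamts9* and *Adamts19*. The widest gaps between replicates 2 and 3 and replicate 1 were -3.87 in *Adamts19*, 3.59 in *Adamts4*, -2.21 in *Adamts3* and 1.96 in *Adamts9* (log2). Replicates 2 and 3 were both above all proliferative libraries in 12 members (29.7% of all genes) and both below in 3 (25.3%), and replicate 1 was above as well in 8 of the 12. In *Adamts10* and *Adamts15* the gap was -0.04 and 0.02. The osteoclast, endothelial and macrophage sums given above separate the same libraries, as do *Mmp13* and *Spp1*. Their part in these gaps was not tested.

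**Figure D3:**
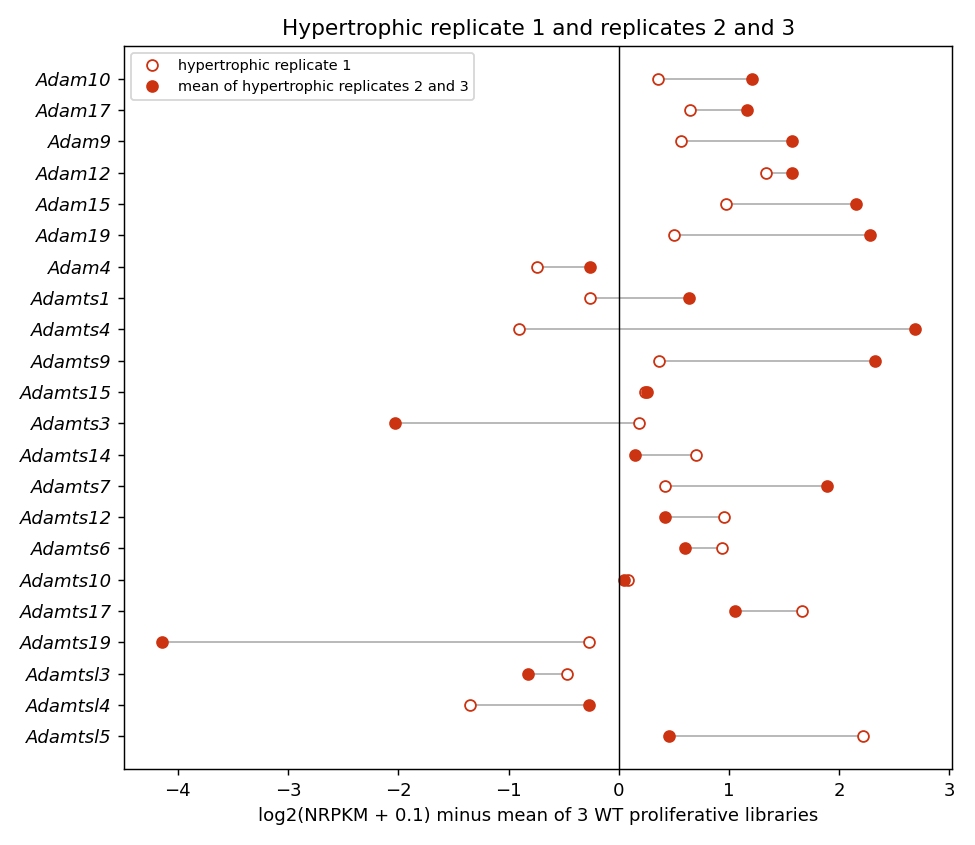
Difference from the mean of the 3 WT proliferative libraries, in log2(NRPKM + 0.1), for hypertrophic replicate 1 (open) and the mean of replicates 2 and 3 (filled), 1 line per member. Replicate 1 and the pair lie on the same side of 0 and close together in *Adam12* (1.33 and 1.57), and on opposite sides in *Adamts4* (-0.90 and 2.69) and *Adamts3* (0.18 and -2.03).

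**Figure D4:**
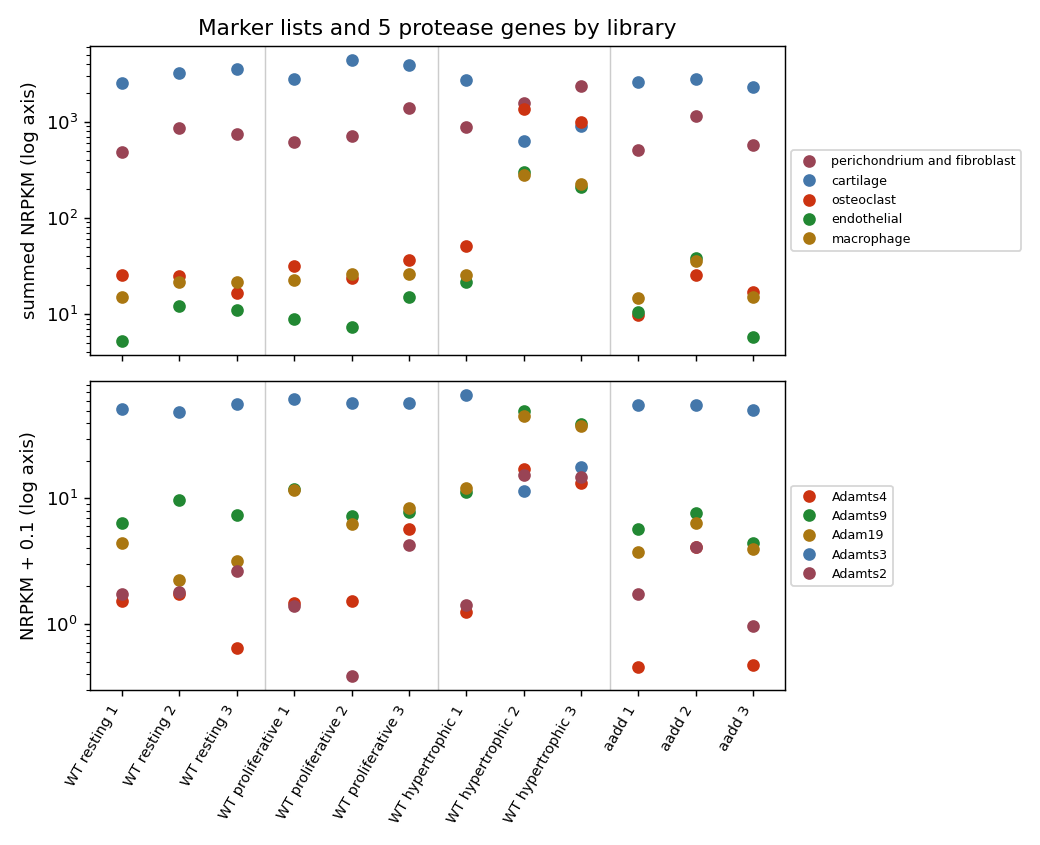
Summed NRPKM of 5 marker lists of 10 genes each (top) and NRPKM + 0.1 of 5 protease genes (bottom) in each of the 12 libraries, both on log axes. Osteoclast, endothelial and macrophage sums, *Adamts4*, *Adamts9*, *Adam19* and *Adamts2* are highest in hypertrophic replicates 2 and 3, and the cartilage sum and *Adamts3* are lowest there.

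The remaining 35 members were low, apart from *Adamts2* in hypertrophic replicates 2 and 3 (15.4 and 14.8 NRPKM). In 15 the highest value in any library was under 1 NRPKM, and 10 were listed at 0 in at least 6 libraries. Of the 21 ADAMs known mostly from testis, sperm or epididymis, *Adam4* was the only one in the tests, and the median member had a median of 0.07 NRPKM. *Adam11*, *Adam22* and *Adam23*, which lack protease activity and act in the nervous system, were at 0.74 to 5.36 NRPKM, with the highest value in *Adam22* in *aadd* replicate 1. *Adam8*, known from myeloid cells and osteoclasts, was at 3.81, 4.88 and 6.16 NRPKM in WT hypertrophic and 0.19 to 6.30 in the others. *Adam28* was at 1.497 to 3.24 NRPKM throughout, and *Adam21* at 0.08 to 4.57. *Adamtsl1* was at 0.55 to 5.23 NRPKM.

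Without the level filter 6 members were called for proliferative against resting (7.26% of all genes then fitted), 8 for hypertrophic against proliferative (9.42%) and 15 for hypertrophic against resting (12.5%). *Adam18* and *Adamts18* joined the first and *Adamtsl5* left it, *Adamts18* and *Adamts20* joined the next and *Adamts19* left it, and *Adam3*, *Adam11*, *Adam21*, *Adamts18* and *Adamts20* joined the last and *Adam15* left it. *Adam18* (log2 FC 1.99; limma, adjusted *P* = 0.132) rested on 1 to 2.52 reads in the proliferative libraries and *Adam3* (1.59; adjusted *P* = 0.214) on 1.46 to 5.78 in the hypertrophic ones, and both were named after their values were seen. *Adam11* was at 3.02 to 4.67 NRPKM in WT resting and 1.24 to 2.24 in WT hypertrophic (log2 FC -1.11; limma, adjusted *P* = 0.178), and *Adam21* at 1.40 to 4.57 and 0.23 to 1.03 (-1.79; adjusted *P* = 0.256). *Adamts18*, which takes part in eye development, was at 3.46, 3.30 and 5.45 NRPKM in WT hypertrophic, 0.97, 1.09 and 2.69 in WT proliferative, 0.09, 0.49 and 0.20 in WT resting and 0, 0.21 and 0.18 in *aadd*. The 3 WT compartments did not overlap and hypertrophic replicate 1 stood with its group. The log2 FC was 2.25 ± 0.58 for proliferative against resting (limma, adjusted *P* = 0.302), 1.41 ± 0.47 for hypertrophic against proliferative (adjusted *P* = 0.365) and 3.67 ± 0.49 for hypertrophic against resting (adjusted *P* = 0.0379), with 2.58 to 12 reads in the resting libraries. *Adamts20*, the versicanase mutated in belted mice, was at 4.88, 2.86 and 2.53 NRPKM in WT resting, 2.66, 2.88 and 2.15 in WT proliferative, 0.90, 0.28 and 0.57 in WT hypertrophic and 0.85, 0.47 and 1.53 in *aadd*. It was lower in hypertrophic than in proliferative (log2 FC -2.07 ± 0.42; adjusted *P* = 0.241), in hypertrophic than in resting (-2.43 ± 0.46; adjusted *P* = 0.0850) and in *aadd* than in resting (-1.82 ± 0.47; adjusted *P* = 0.540).

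In the same fits *aadd* had 7 members called, against 5.82% of the 22335 genes fitted. Beside the 3 above and *Adamts20*, these were *Adam33*, *Adamts5* and *Adamts8*, all higher. *Adam33*, a mesenchymal ADAM, was at 2.52, 5.26 and 2.87 NRPKM in *aadd* and 0.95, 2.40 and 0.73 in WT resting (log2 FC 1.42 ± 0.52; limma, adjusted *P* = 0.746). *Adamts5* (aggrecanase-2) was at 1.46, 4.14 and 2.79 NRPKM in *aadd*, 0.73, 0.72 and 1.21 in WT resting and 0.66, 5.26 and 3.22 in WT hypertrophic (log2 FC of *aadd* against resting 1.47 ± 0.44; adjusted *P* = 0.654). *Adamts8*, named after its values were seen, was at 0.92, 1.06 and 1.31 NRPKM in *aadd* and 0.13, 0 and 0.57 in WT resting, at 10.7 to 17.3 reads and 0 to 6.68 reads. Its log2 FC was 2.25 ± 0.70 (limma, adjusted *P* = 0.688). In none of the 3 did the groups overlap. Of the proteoglycanase genes, *Adamts1*, *Adamts5*, *Adamts8* and *Adamts15* were called higher in *aadd* in this fit and *Adamts20* lower. *Adamts4* and *Adamts9* were not called. These calls are by unadjusted *P*, and the adjusted *P* of the called genes in limma was 0.409 to 0.688. Of the 22335 genes fitted, 844 were called higher in *aadd*.

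Inhibitors and partners of these enzymes were read from lists of genes. Their counts stand beside the shares of all genes called, 5.53% for proliferative against resting, 9.67% for hypertrophic against proliferative, 13% for hypertrophic against resting and 6.56% for *aadd* against resting, and beside 18.4% and 19.2% for the hypertrophic comparisons without replicate 1. Of 9 tested inhibitors, escorts and uptake genes (15 on the list), *Timp1*, an inhibitor of metalloproteases, was higher in proliferative than in resting (67.3 ± 19.8 against 31.0 ± 7.10 NRPKM, SD, n = 3; log2 FC 1.10, limma adjusted *P* = 0.149). It was at 45.3 NRPKM in hypertrophic replicate 1 and 121 and 141 in replicates 2 and 3 (log2 FC against resting 1.59, adjusted *P* = 0.0928, and 2.10 without replicate 1, adjusted *P* = 0.00458). *Timp3*, the matrix-bound inhibitor of ADAM and ADAMTS enzymes, was at 41.5 NRPKM in hypertrophic replicate 1, 66.3 and 67.5 in replicates 2 and 3 and 18.6 to 31.9 in proliferative (log2 FC 1.13, limma adjusted *P* = 0.170, and 1.36 without replicate 1, adjusted *P* = 0.0325). *Tspan5*, a tetraspanin that escorts ADAM10, was at 5.46 NRPKM in replicate 1, 14.5 in each of replicates 2 and 3 and 2.35 to 3.40 in resting (log2 FC 1.94; limma, adjusted *P* = 0.0495, and 2.40 without replicate 1, adjusted *P* = 0.00217). In hypertrophic against proliferative 1 of the 9 was called, *Timp3*, and without replicate 1 there were 2, with *Tspan5*. In hypertrophic against resting 2 were called, *Timp1* and *Tspan5*, both higher, joined without replicate 1 by *Tspan14* (higher) and *Reck* (lower). In *aadd* none of the 9 was called. Of 6 tested propeptide convertases and glycosylation genes (7 of the list found), *Pcsk6*, a convertase of the furin family, was the only one called in any comparison, with or without replicate 1. It was at 48.7, 40.4 and 67.7 NRPKM in hypertrophic, 6.49 to 14.4 in proliferative and 6.15 to 7.98 in resting, so replicate 1 lay between the other two. Its log2 FC was 2.26 against proliferative (limma, adjusted *P* = 0.116) and 2.87 against resting (adjusted *P* = 0.00349), and 2.29 and 2.90 without replicate 1 (adjusted *P* = 0.0263 and 0.00236).

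Of 12 tested matrix substrates and partners (15 on the list), *Vcan*, which encodes versican, was at 49.1 to 81.7 NRPKM in WT resting, 14.2 to 33.6 in WT proliferative, 30.2, 38.8 and 35.4 in WT hypertrophic and 88.6 to 95.3 in *aadd*. *Fbn2*, which encodes fibrillin-2, had 68.7 to 74.8 NRPKM in WT resting, 15.6 to 52.9 in WT proliferative, 34.0, 18.7 and 22.7 in WT hypertrophic and 101 to 130 in *aadd*. Both were lower in proliferative than in resting (log2 FC -1.32 and -1.16; limma, adjusted *P* = 0.190 and 0.2697) and higher in *aadd* (0.61 and 0.65; adjusted *P* = 0.448 and 0.278), without overlap, and were the 2 of the 12 called in *aadd*. *Comp* was higher in proliferative than in resting (185 to 344 against 73.2 to 172 NRPKM; log2 FC 1.16, adjusted *P* = 0.229), which with *Vcan* and *Fbn2* made 3 of the 12.

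*Acan*, which encodes aggrecan, was at 222 NRPKM in hypertrophic replicate 1 and 60 and 88.7 in replicates 2 and 3, against 248 to 407 in proliferative and 212 to 311 in resting. Replicate 1 was thus just under the proliferative libraries and inside the resting range, and the gap lay in replicates 2 and 3. The log2 FC against proliferative was -1.69 (limma, adjusted *P* = 0.185), and -2.23 without replicate 1 (adjusted *P* = 0.0141). *Col2a1* (898 in replicate 1 and 245 and 343 in replicates 2 and 3), *Comp* (202, 47.4 and 59.3) and *Thbs1* (101, 44.2 and 60.1 NRPKM) were split in the same way. These 4 of the 12 were called lower in hypertrophic than in proliferative, *Col2a1* and *Comp* with overlapping groups, and none higher. Without replicate 1 the same 4 were lower, and *Col1a1* and *Col1a2* were higher. In hypertrophic against resting 3 were higher (*Col1a1*, *Col1a2* and *Fn1*) and 4 lower (*Thbs1*, *Fbn2*, and, with overlapping groups, *Acan* and *Col2a1*), and without replicate 1 *Comp* was lower too. *Col1a1* was at 360 NRPKM in replicate 1 and 723 and 1187 in replicates 2 and 3, while *Fn1* was at 279, 278 and 258. The part of the osteoclast, endothelial and macrophage sums, which separate the same libraries, was not tested.

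Of 8 tested membrane substrates (20 on the list), *Cdh2* (N-cadherin, cut by ADAM10) was higher in every comparison. It was at 4.30 to 5.38 NRPKM in WT resting, 5.39 to 22.1 in WT proliferative, 57.0, 85.2 and 82.3 in WT hypertrophic and 10.1 to 13.7 in *aadd*. The log2 FC was 1.41, 2.503, 3.91 and 1.25 for proliferative against resting, hypertrophic against proliferative, hypertrophic against resting and *aadd* against resting (limma, adjusted *P* = 0.260, 0.140, 0.000843 and 0.0960), and 2.69 and 4.09 for the hypertrophic comparisons without replicate 1 (adjusted *P* = 0.0436 and 0.000368). The lowest proliferative and the highest resting library were nearly equal. In *aadd* 4 of the 8 were called, all higher, against 3.78% of all genes called higher. Beside *Cdh2* these were *Efna5* (log2 FC 1.73), *Efnb2* (0.69) and *Ptprk* (0.63), with adjusted *P* in limma of 0.0888, 0.315 and 0.360. *Cdh11* was higher in hypertrophic (61.4, 77.8 and 79.6 NRPKM) than in proliferative (log2 FC 1.03; limma, adjusted *P* = 0.202, and 1.15 without replicate 1, adjusted *P* = 0.0963). *Tgfa*, a ligand released by ADAM17, was at 11.03 NRPKM in hypertrophic replicate 1, 2.89 and 2.97 in replicates 2 and 3 and 12.65 to 22.6 in resting (log2 FC -1.73; limma, adjusted *P* = 0.117, and -2.35 without replicate 1, adjusted *P* = 0.00572). Without replicate 1, *Notch1* and *Ptprk* (higher) and *Tgfa* (lower) were added against proliferative and *Notch1* (higher) against resting, while *Cdh2* and *Cdh11* stayed called in the former and *Cdh2* and *Tgfa* in the latter.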

How the data were processed

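RNA-Seq values of 12 libraries were analysed, 3 each of WT resting, WT proliferative, WT hypertrophic and *aadd* E15.5 zeugopod chondrocytes. The authors captured cells by LCM, amplified 20 ng of total RNA per sample, aligned reads to mm10 (TopHat in the submitters' processing notes) and obtained expression levels in GeneSpring. What was deposited is RPKM, normalized further between libraries by the authors (NRPKM), on a linear scale with zeros kept. How libraries were scaled and whether counting used strand is not given in the sources used here, and no read counts were used.

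Depth was read from the most frequent value above 0 of 1596 short receptor and keratin-associated rows, taken as 1 read, and came to 1888310 to 3237890 reads. Reads behind a gene are estimates from NRPKM, exon length and this depth, so errors in each of these enter beside counting error. They do not measure the spread between samples. The scale of every test and FC is log2(NRPKM + 0.1), which understates changes of low genes. The 10936 genes that reached 5 NRPKM in 3 libraries or more were fitted in limma 3.58.1 (R 4.3.3) for each pair of groups, with no covariate and Benjamini-Hochberg adjustment over all genes. An exact two-sided permutation test of 3 against 3 libraries cannot go below 0.1. Tables and plots were made with Python 3.11.15 (matplotlib 3.10.9, pandas 2.3.3, numpy 2.4.6). The procedure was tested on simulated data.

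Libraries that share a replicate number were compared by how they deviate from the group mean over genes (which are not independent replicates). Between WT resting and WT proliferative the correlations were 0.281, 0.179 and 0.198, all above 0.1, so a fit with the number as a block stands beside that comparison where it changed a call. The other pairs of groups did not pass this check. Alternatives were a pseudocount of 1, no level filter, quantile normalization, rescaling to the median ratio, 1 fit of all 12 libraries, the replicate block, and each library left out.

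Every tested member was named. Low members were named if 1 group kept to 1 NRPKM or more throughout, and genes of the partner lists where they were called with no overlap between groups. *Adam3*, *Adam18* and *Adamts8*, *Acan*, *Col2a1* and *Comp* where their groups overlapped, and partner genes called without hypertrophic replicate 1 alone were named after their values were seen. Members, lists and tests were chosen with earlier results of these data known, and the promoter motifs after the values were seen. Gene symbols of all 57 members were matched to the GENCODE annotation. Beside the overlaps given above, rows of *Adam10*, *Adam12*, *Adam15*, *Adamts3*, *Adamts6*, *Adamts17* and *Adamts19* overlap other rows. Reads in such overlaps cannot be assigned here.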

Additional observations from a re-analysis of the deposited data

How the results depend on the processing

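Of the calls between WT hypertrophic and WT proliferative, the number of members with a library left out ran from 2 (without hypertrophic replicate 2 or 3) to 12 (without hypertrophic replicate 1), with 4 without proliferative replicate 3 and 7 with all libraries. Between *aadd* and WT resting it ran from 3 to 5, between WT proliferative and WT resting from 4 to 7, and between WT hypertrophic and WT resting from 8 to 16. Shares of all genes called in the same fits were 6.02% to 18.4%, 5% to 9.12%, 4.65% to 7.4% and 10.9% to 19.2%, in this order. Without the level filter 7 members were called between *aadd* and WT resting in place of 3, with more genes fitted (5.82% of them called). The other settings gave counts within 1.5 times those reported, namely a pseudocount of 1, rescaling, quantile normalization, 1 fit of all libraries and the replicate block.

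Over the 26 member calls and 12 alternatives each, 263 of 312 values kept the call, 49 lost it (38 with a library left out, 11 under another setting) and 0 reversed. In 12 of the 26 no alternative ended the call. A pseudocount of 1 ended the calls of *Adam10*, *Adam15* and *Adamts15* (hypertrophic against resting) and *Adamtsl5* (proliferative against resting). With all 12 libraries in 1 fit 4 members passed an adjusted *P* under 0.05 in limma between hypertrophic and proliferative (705 of all genes in place of 0), 11 between hypertrophic and resting (1605 in place of 696), 2 between proliferative and resting (128 in place of 68) and 0 for *aadd* (10 in place of 13). The cause was not tested.

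With the replicate number as a block 5, 7, 12 and 4 members were called for proliferative against resting, hypertrophic against proliferative, hypertrophic against resting and *aadd* against resting. The shares of all genes called were 6.14%, 9.38%, 13.4% and 7.21%. Genes with an adjusted *P* under 0.05 were 9, 0, 241 and 0 of all genes. Outside the first comparison the correlations of same-numbered libraries were not all above 0.1 (-0.058 to 0.124, 0.063 to 0.111 and -0.097 to 0.280). Between hypertrophic and resting they were all positive but small. In these other comparisons the block removed *Adamts9* and added *Adamtsl5* between hypertrophic and proliferative, added *Adamts7* between hypertrophic and resting and added *Adamtsl5* for *aadd*.

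With 3 libraries a group, intervals were wide for low members, as for *Adamts4* in *aadd* (log2 FC -0.33, 95% interval -2.41 to 1.76), and a member that was not called is not shown to be equal. Compartment, capture and neighboring tissue cannot be told apart in these libraries.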
